A study of Homo sapiens with 6 samples.

Results

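Long intergenic noncoding RNAs (lincRNAs) are an annotation class for long transcripts with no long open reading frame, intended for genes outside coding ones, although 45 of the 208 described here overlapped a protein-coding gene. The expression table of HMV-II cells lists 2797 lincRNAs among 30015 genes. The 208 lincRNAs described here are those whose mean over the 6 libraries was at least 50 normalized counts, the reads counted on a gene divided by a size factor of its library. They were thus selected on their measured level, and their levels are given as a description. A lincRNA that was high in 1 group only could enter through that group. Just inside the limit lay AL035071.1 with a mean of 50.2, SH3TC2-DT with 51.5 and LINC00476 with 51.7 normalized counts. Just outside it lay AC036214.1 with 49.6, AL669831.5 with 49.2 and AC092368.3 with 48.6.

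HMV-II is a human mucosal melanoma cell line of vaginal origin. The Vector group (3 libraries, genotype WT) carried a control shRNA and the shEZH2 group (3 libraries, genotype EZH2 knockdown) carried an shRNA against EZH2, and neither received a further treatment. According to the study's methods, both were made by lentiviral infection and puromycin selection, and the table heads the knockdown group sh1. The labels do not say that the libraries of a group came from separate cultures, so p-values measure only the spread between these libraries. With a single shRNA in the sequenced group, an effect of EZH2 loss and another effect of that shRNA cannot be told apart.

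EZH2 is the catalytic subunit of the Polycomb repressive complex PRC2, which methylates histone H3 and keeps genes silent. Several lincRNAs have been reported to bind PRC2 or to guide it to chromatin, and lincRNA genes are themselves among the genes that PRC2 marks. Other lincRNAs build nuclear bodies or serve as precursors of small RNAs that are cut from their introns or exons.

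EZH2 itself was at 483, 437 and 552 normalized counts in the 3 Vector libraries and at 237, 247 and 225 in the 3 shEZH2 libraries, each in the order of their replicate numbers, as throughout. The groups did not overlap, and the log2 fold change was -1.04 (two-sided exact permutation p = 0.1, which is the lowest that 3 libraries against 3 can give). Depth ran from 13400290 to 19128939 counted reads per library. All 7 melanocyte markers examined reached a mean of 10 normalized counts, as did 2 of 6 fibroblast markers (LUM and COL1A2), 1 of 6 squamous epithelium markers (CDH1), 1 of 3 endothelial markers (VWF) and 0 of 5 leukocyte markers. The summed level of the fibroblast list was 176 to 246 normalized counts in Vector and 251 to 314 in shEZH2 libraries, and its part in the results below was not tested. Vector replicate 2 stood apart from the other Vector libraries. Set against counting noise, its counts gave a mean chi-square per gene of 119 and 116 relative to Vector replicates 1 and 3, which gave 2.15 relative to each other. For this reason the lincRNA results are given with and without it. The fit without it takes the Vector spread from 2 libraries that lay close together.

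The 208 lincRNAs held 0.492% to 0.778% of all normalized counts in each library. Their means ran from 50.2 to 19135 normalized counts with a median of 113, and 90 of them had a mean under 100. Only 10 had a mean over 1000. By name, 55 were LINC genes and 89 carried a clone-based code. Their exons added up to a median of 2758.5 bases, against 4622.0 over all 15251 genes tested. Among the 208, 202 lay on autosomes and 6 on chromosome X.

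MALAT1, NEAT1 and NORAD were the highest lincRNAs by mean normalized count and together held 42.5% to 47.7% of the summed lincRNA counts in 5 libraries. In Vector replicate 2 they held 68.3%, of which MALAT1 alone accounted for 46.2%, against 11.3% to 16.5% elsewhere. Per kilobase of exon the order was different. SNHG8, a short host of small nucleolar RNAs, had the highest level with 2846 normalized counts per kilobase, followed by MALAT1 with 2167, NORAD with 1984, MIR3142HG with 983, LINC01293 with 867 and NEAT1 with 731. With Vector replicate 2 included, SNHG8 ranged from 409 to 4028 normalized counts and MALAT1 from 8792 to 56069 across libraries, so this order does not separate the highest lincRNAs from each other beyond the spread over libraries.

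The comparison asked which lincRNAs changed when EZH2 was knocked down. A gene was called at the study's threshold when limma gave an unadjusted p under 0.05 and the change was over 1.5-fold (0.585 on the log2 scale). Of the 208 lincRNAs, 18 (8.65%) were called higher in shEZH2 cells, where 7.55% of all genes tested were, and 24 (11.5%) were called lower, where 7.07% were. Vector and shEZH2 libraries were fully separated in 17 of the 18 and in all 24, as they were in 1124 of the 1151 genes called higher and 1049 of the 1078 called lower over all genes tested. Over the whole set, 39 lincRNAs (18.8%) had every shEZH2 library above every Vector library, against 18.4% of all genes, and 39 (18.8%) had every shEZH2 library below, against 16.5%. Adjusted over all 15251 genes in limma, 9 lincRNAs (4.33%) were higher and 8 (3.85%) lower at a p under 0.05, against 2.28% and 1.84% of all genes. The adjusted counts were unstable: with each library left out in turn, between 0 and 17 lincRNAs were higher and between 0 and 28 lower. Both counts fell when any library other than Vector replicate 2 was left out. Each such fit also has fewer libraries. Both ends at 0 came from leaving out shEZH2 replicate 3, where 14 lincRNAs were still called higher and 18 lower at the study's threshold.

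When Vector replicate 2 was left out, 15 lincRNAs (7.21%) were called higher and 25 (12%) lower, against 7.05% and 5.64% of all genes. After adjustment in limma 17 (8.17%) were then higher and 28 (13.5%) lower, against 9.78% and 9.07% of all genes. Called in the same direction both ways were 14 lincRNAs higher (6.73%) and 19 lower (9.13%), against 5.51% and 4.56% of all genes. At a mean of at least 50, 6.99% of protein-coding genes were called higher and 6.58% lower with all 6 libraries. For antisense genes with a mean of at least 50 these shares were 7.62% and 8.97%.

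The median log2 fold change of the 208 lincRNAs was 0.068, with quartiles at -0.300 and 0.443, beside a median of 0.039 over all genes tested. Leaving out Vector replicate 2 turned it to -0.078, beside -0.006 over all genes. With all 6 libraries 119 lincRNAs (57.2%) had a log2 fold change above 0, and 87 (41.8%) did without that library. The sign differed between both fits in 44 (21.2%), as it did in 18.7% of all genes. With all 6 libraries the median was -0.065 after the trend with gene length was removed, and 0.002 with DESeq2. A prevailing direction of the 208 lincRNAs therefore depended on Vector replicate 2 and on the fit. Among the 166 lincRNAs that were not called, log2 fold changes lay between -2.18 and 1.45.

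**Figure D1:**
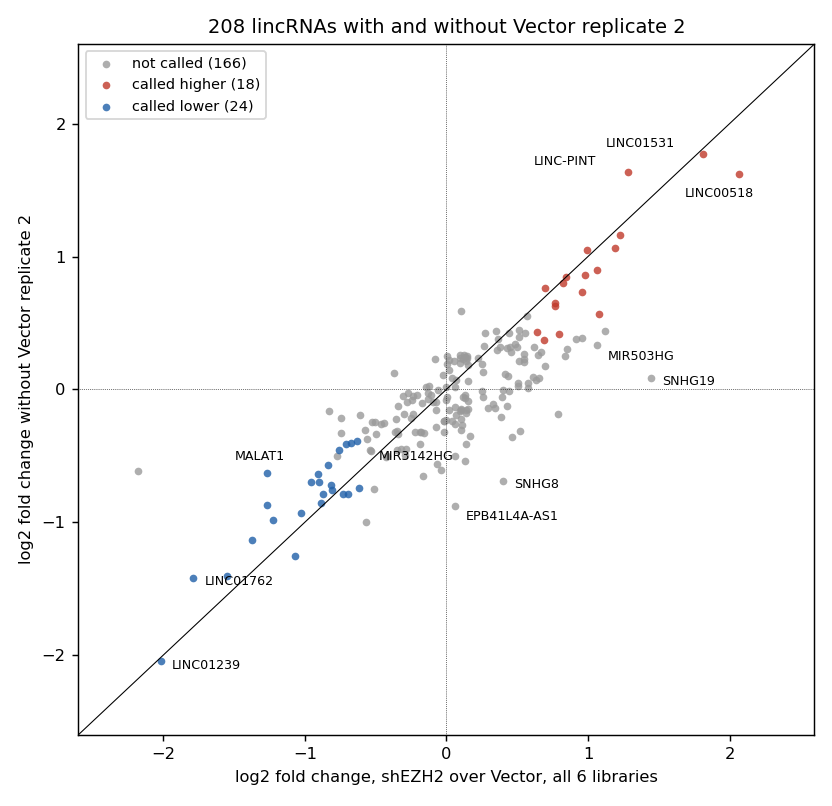
Each point is 1 of the 208 lincRNAs, with its log2 fold change (shEZH2 over Vector) from all 6 libraries on the x axis and without Vector replicate 2 on the y axis, and the diagonal marks equal values. The called lincRNAs (18 higher in red, 24 lower in blue) keep their side of 0 on both axes, while SNHG8 and EPB41L4A-AS1 lie right of 0 and below 0.

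Vector replicate 2 departed from its group by far more than other libraries did from theirs. The range over Vector replicates 1 and 3 had a median of 0.156 on the log2 scale across the 208 lincRNAs, that over the 3 shEZH2 libraries 0.328, and that over all 3 Vector libraries 0.748. Vector replicate 2 was the lowest of the 6 libraries for 97 lincRNAs and the highest for 61. It lay over 2 times from the mean of the other Vector libraries for 56 lincRNAs, below it for 45 and above it for 11. Vector replicates 1 and 3 were over 2 times apart for 1 lincRNA.

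The departure differed between classes of exon length. For the 28 lincRNAs with under 1000 bases of exon, the median log2 difference of Vector replicate 2 from the other Vector libraries was -1.14, and 21 of them were lower there. It was -0.69 for the 34 lincRNAs of 1000 to 2000 bases, -0.24 for the 77 of 2000 to 4000 bases, 0.10 for the 50 of 4000 to 8000 bases and 0.09 for the 19 longer ones. Over all genes tested, the medians of these classes were -0.11, -0.73, -0.38, 0.04 and 0.42, from the shortest to the longest, so the low value of the shortest lincRNAs did not appear in the 1023 genes of that class as a whole. The median log2 fold change with all 6 libraries was 0.41 in the shortest class and 0.04 without Vector replicate 2. Why that library differs was not tested.

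**Figure D2:**
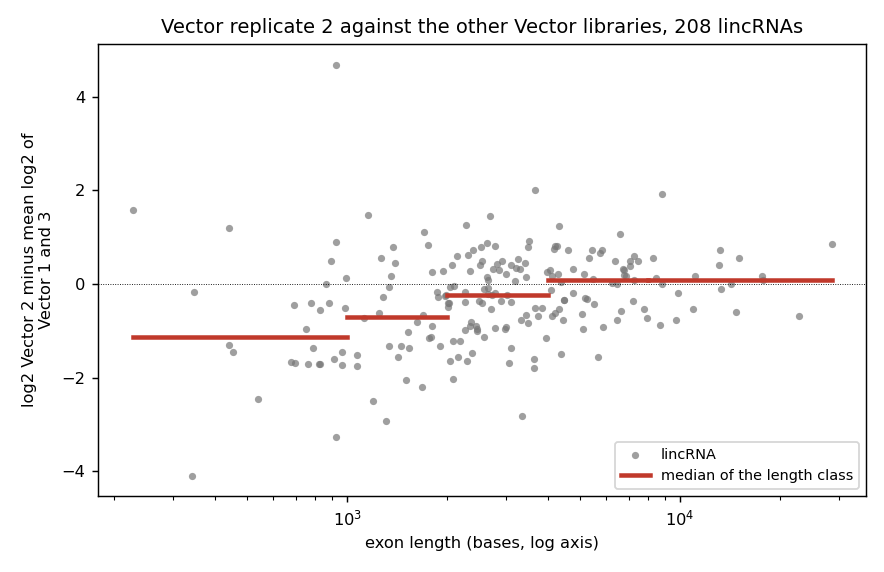
Each point is 1 of the 208 lincRNAs, with its exon length in bases (x axis, log scale) and the log2 value in Vector replicate 2 minus the mean log2 value of Vector replicates 1 and 3 (y axis). Red lines give the median of each length class, which goes from -1.14 in the shortest class to 0.09 in the longest.

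LINC00518, a melanoma-associated transcript that is read together with PRAME in patch tests of pigmented lesions, had the largest rise. It was at 330, 133 and 341 normalized counts in Vector and at 969, 1158 and 994 in shEZH2 libraries. The log2 fold change was 2.07 (SE 0.35, adjusted p = 0.0252 in limma), and 1.62 without Vector replicate 2, the lowest library. The gene (ENSG00000183674) lies on the minus strand at chr6:10429255-10434874 in GRCh38, 9596 bases from TFAP2A. TFAP2A encodes a transcription factor of the neural crest and melanocyte lineage, and it also rose, by 0.68 on the log2 scale.

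LINC01531 rose almost as much and with less spread. Its Vector libraries held 111, 104 and 117 normalized counts and its shEZH2 libraries 397, 424 and 354. This gave a log2 fold change of 1.81 (SE 0.15, adjusted p = 0.00317 in limma) and 1.77 without Vector replicate 2. This lincRNA (ENSG00000205786) is on the plus strand at chr19:35399511-35419385, and its nearest coding gene, FFAR3, was below the minimum for testing.

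LINC00707 was the most abundant of the 18 lincRNAs called higher. It had 612, 523 and 574 normalized counts in Vector and 1249, 1426 and 1320 in shEZH2 libraries, a log2 fold change of 1.23 (SE 0.13, adjusted p = 0.00739 in limma). LINC00665 had 164, 123 and 155 against 353, 306 and 348, with a log2 fold change of 1.19 (adjusted p = 0.0144 in limma). LINC01366 had 296, 197 and 264 against 533, 509 and 523, with a log2 fold change of 1.07 (adjusted p = 0.0241 in limma). In all 3 the groups were far apart, and Vector replicate 2 was the lowest library. Leaving it out gave 1.17, 1.07 and 0.90.

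AP001803.2 had 254, 214 and 300 normalized counts in Vector and 436, 521 and 558 in shEZH2 libraries, with a log2 fold change of 0.98. RALY-AS1, transcribed from the strand opposite to RALY, had 43.9, 43.1 and 42.8 against 83.8, 76.7 and 75.4, with a log2 fold change of 0.85. All Vector libraries of RALY-AS1 lay below the limit of 50 for the mean. It was therefore selected only through the shEZH2 libraries, in which it was higher. AC019069.1, which starts 6 bases from the start of the hexokinase gene HK2 on the other strand, had 59.6, 52.4 and 50.9 against 117, 90.2 and 85.9, with a log2 fold change of 0.83. RALY and HK2 were not called themselves, at 0.38 and -0.55. Counting by strand is not stated in the sources used here, so reads in the overlap of each pair cannot be told apart.

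AC009549.1, which overlaps NAV2, had 73.2, 45.4 and 72.3 normalized counts in Vector and 128, 141 and 100 in shEZH2 libraries. The rise was 0.96 on the log2 scale, and 0.73 without Vector replicate 2. When limma weighted the libraries by their estimated quality, it was 0.52 and short of the threshold. AL392172.1 had 74.2, 26.8 and 83.5 against 110, 114 and 129. The size of its rise, 1.08, depended on Vector replicate 2. Without that library the rise was 0.57 (adjusted p = 0.038 in limma) and short of the fold threshold. It also missed the threshold without shEZH2 replicate 1 (1.12), 2 (1.09) or 3 (1.01). The 6 smaller rises had log2 fold changes of 0.64 to 0.80, and 3 of the 6 were called without Vector replicate 2.

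LINC01239 had the largest fall among the called lincRNAs. It was at 378, 348 and 370 normalized counts in Vector and at 82.8, 99.8 and 86.9 in shEZH2 libraries, so that every shEZH2 library lay far below every Vector library. The log2 fold change was -2.01 (SE 0.15, adjusted p = 0.00317 in limma) and -2.05 without Vector replicate 2. The gene (ENSG00000234840) spans chr9:22646200-22824213 on the plus strand and overlaps 2 other lincRNAs and a pseudogene. Its nearest coding gene, DMRTA1, 190460 bases away, fell as well, by 0.95 on the log2 scale.

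LINC01762 had 174, 343 and 145 normalized counts in Vector and 55.2, 71.1 and 51.6 in shEZH2 libraries. They differed by -1.79 on the log2 scale (SE 0.33, adjusted p = 0.0306 in limma). Vector replicate 2 was the highest library here, and the log2 fold change without it was -1.42. The gene (ENSG00000233154) lies on the minus strand at chr1:116423724-116478842.

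PWAR6 comes from the imprinted Prader-Willi and Angelman region of chromosome 15 and lies within the host transcript SNHG14 on the same strand. It was at 129, 231 and 152 normalized counts in Vector and at 58.1, 60.7 and 71.6 in shEZH2 libraries, with a log2 fold change of -1.37 (adjusted p = 0.0281 in limma) and -1.13 without Vector replicate 2. AP003469.4, on chromosome 8 between coding genes, had 127, 169 and 124 against 74.3, 44.7 and 30.6, with a log2 fold change of -1.55 and -1.41 without that library. AC015813.1 had 296, 463 and 261 against 146, 150 and 126, with a log2 fold change of -1.23, and it overlaps the coding gene AC015813.2 on the same strand. The Vector and shEZH2 libraries did not overlap in any of these 3.

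In AL645608.8, as in LINC01239 and unlike the other large falls, Vector replicate 2 was the lowest Vector library. It had 108, 76.8 and 118 normalized counts in Vector and 48.6, 55.1 and 38.2 in shEZH2 libraries, and its log2 fold change went from -1.07 to -1.25 when that library was left out. AC009404.1 had 91.0, 119 and 103 against 45.7, 55.9 and 49.7, with a log2 fold change of -1.03. AC093297.2 had 95.2, 175 and 107 against 64.8, 66.3 and 55.4, with a log2 fold change of -0.96 and -0.70 without Vector replicate 2.

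The remaining falls of this group were closer to the threshold. AC090023.1 had 52.3, 147 and 76.4 normalized counts in Vector and 28.6, 48.7 and 28.6 in shEZH2 libraries. It fell by 1.27 on the log2 scale, and missed the threshold without shEZH2 replicate 1 (-1.14) or 3 (-1.15). LINC01446 had 101, 156 and 78.4 against 42.9, 61.5 and 69.7. Its log2 fold change was -0.91, and the call was lost without shEZH2 replicate 1 (-0.71). AL035071.1 had 64.8, 85.0 and 47.9 against 37.1, 26.4 and 40.1, with a log2 fold change of -0.90, and lost the call without shEZH2 replicate 2 (-0.72). All shEZH2 libraries of AC090023.1 and AL035071.1 lay below the limit of 50 for the mean, so both were selected only through Vector libraries. In AP003469.4 and AL645608.8 the mean of the shEZH2 libraries also lay below 50, so these falls too were selected through Vector libraries. The 12 smaller falls had log2 fold changes of -0.89 to -0.62, and 7 of the 12 were called without Vector replicate 2.

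**Figure D3:**
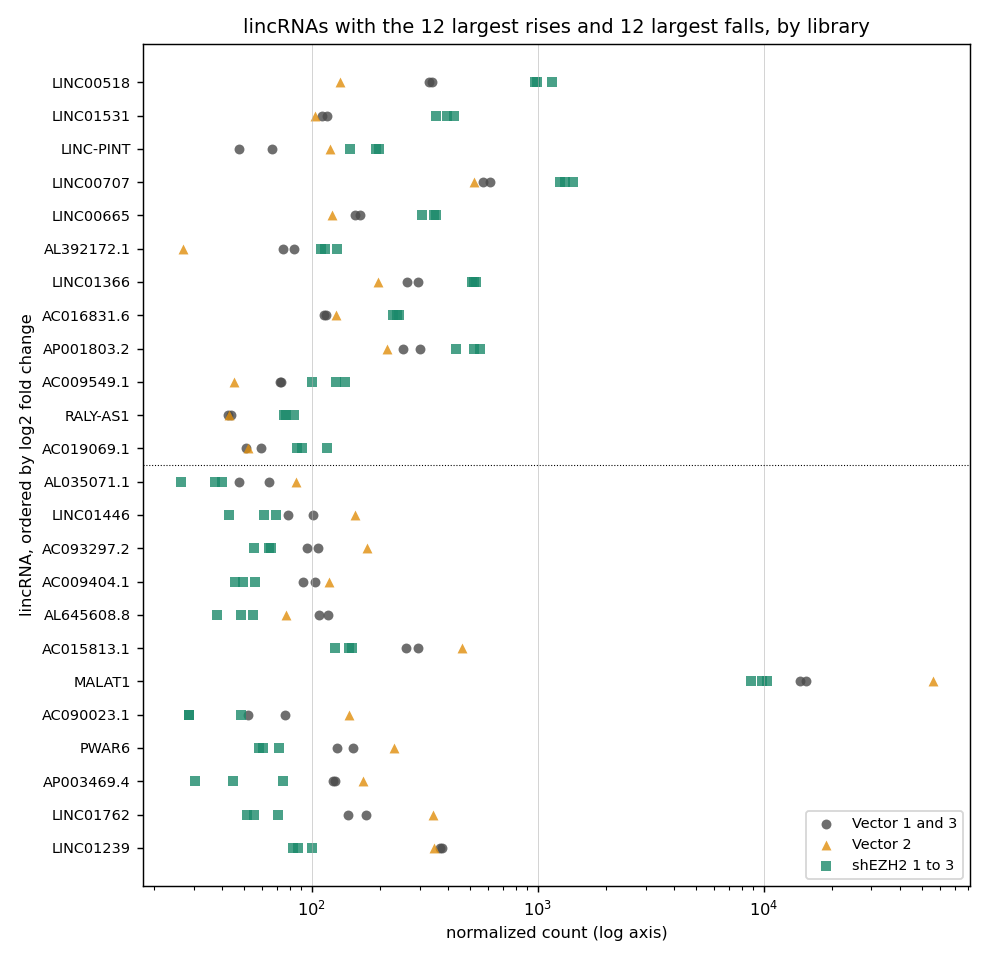
Normalized counts (x axis, log scale) of the lincRNAs with the 12 largest rises (above the dotted line) and the 12 largest falls (below it), with circles for Vector replicates 1 and 3, triangles for Vector replicate 2 and squares for the shEZH2 libraries. Squares lie to the right of all Vector symbols in each rise and to the left in each fall, and the triangle of MALAT1 stands at 56069.

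MALAT1, an abundant RNA of nuclear speckles, was called lower. It had 15313, 56069 and 14458 normalized counts in Vector and 10307, 9868 and 8792 in shEZH2 libraries. In limma this was a log2 fold change of -1.27 (SE 0.49, adjusted p = 0.180 in limma). Vector replicate 2 held over 3 times the level of the other Vector libraries, and the log2 fold change without it was -0.63, still past the threshold. Without shEZH2 replicate 1 (-1.31), 2 (-1.28) or 3 (-1.20) the threshold was missed. The mature MALAT1 transcript ends without a poly(A) tail, and these libraries were made from RNA bound to poly-T beads. Its count may therefore also depend on how it was captured, which was not tested.

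NEAT1, the scaffold of paraspeckles, was not called. Its Vector libraries held 18897, 12005 and 19492 normalized counts and its shEZH2 libraries 20497, 14842 and 14114, so that the groups overlapped. The log2 fold change of NEAT1 was -0.01, and -0.24 without Vector replicate 2. FTX, a regulator in the X inactivation centre, had 112, 186 and 94.7 against 82.8, 88.6 and 88.8, with a log2 fold change of -0.53 that did not pass. Of these 3 RNAs of nuclear architecture and X inactivation, 1 was called lower and 0 higher. The shares over all genes tested were 7.07% lower and 7.55% higher.

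The list of lincRNAs reported to bind PRC2 held 5 of the 208, namely MALAT1, NEAT1, PVT1, CRNDE and LINC-PINT. LINC-PINT, a p53-induced transcript, was the single member called higher and MALAT1 the single member called lower. Among all genes tested, 7.55% were called higher and 7.07% lower. LINC-PINT was at 66.9, 120 and 47.9 normalized counts in Vector and at 193, 198 and 148 in shEZH2 libraries, and the groups did not overlap. Its rise was 1.28 on the log2 scale (SE 0.33, adjusted p = 0.0770 in limma) and 1.64 without Vector replicate 2, its highest Vector library. The entry (ENSG00000226380) lies on the minus strand at chr7:130876809-130913310. The table has another LINC-PINT entry upstream on the same strand, of the biotype processed transcript (ENSG00000231721), which was not called at -0.26.

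CRNDE, a lincRNA raised in many tumours, had 588, 306 and 564 normalized counts in Vector and 687, 714 and 603 in shEZH2 libraries. The difference was 0.51 on the log2 scale, and 0.21 without Vector replicate 2. PVT1, the neighbour of MYC, had 688, 534 and 740 against 621, 597 and 504, with a log2 fold change of -0.18. Neither passed the threshold.

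Of 6 lincRNAs linked to the p53 response, LINC-PINT was called higher and PURPL lower, where 7.55% and 7.07% of all genes tested were. PURPL, which p53 induces and which holds p53 levels down, had 116, 227 and 129 normalized counts in Vector and 93.3, 94.2 and 87.8 in shEZH2 libraries. With all 6 libraries the log2 fold change was -0.71. It was -0.41 and short of the threshold without Vector replicate 2, and -0.72, -0.73 and -0.68 with too large a p without shEZH2 replicate 1, 2 or 3. NORAD, a cytoplasmic RNA that binds Pumilio proteins, had 10205, 14830 and 9982 against 8131, 10343 and 10060 and was not called, with a log2 fold change of -0.28. MIR34AHG, the host of miR-34a and a p53 target, was at 0.14 with all 6 libraries and at -0.16 without Vector replicate 2.

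Among the 3 lincRNAs studied in melanoma, LINC00518 was called higher, where 7.55% of all genes tested were. LINC00520 had 425, 232 and 406 normalized counts in Vector and 571, 446 and 491 in shEZH2 libraries, with a log2 fold change of 0.55. CASC15, a long lincRNA of chromosome 6, had 232, 214 and 231 against 211, 254 and 242, with a log2 fold change of 0.06. The list of 6 lincRNAs widely studied in tumours had 0 called higher and 0 called lower by limma, DESeq2 and edgeR. It also had 0 with an unadjusted limma p under 0.05. Limma called 7.55% of all genes tested higher and 7.07% lower, so 0 of 6 says little about the list. The log2 fold changes of these 6 lay between -0.36 for MIR4435-2HG and 0.51 for CRNDE.

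**Figure D4:**
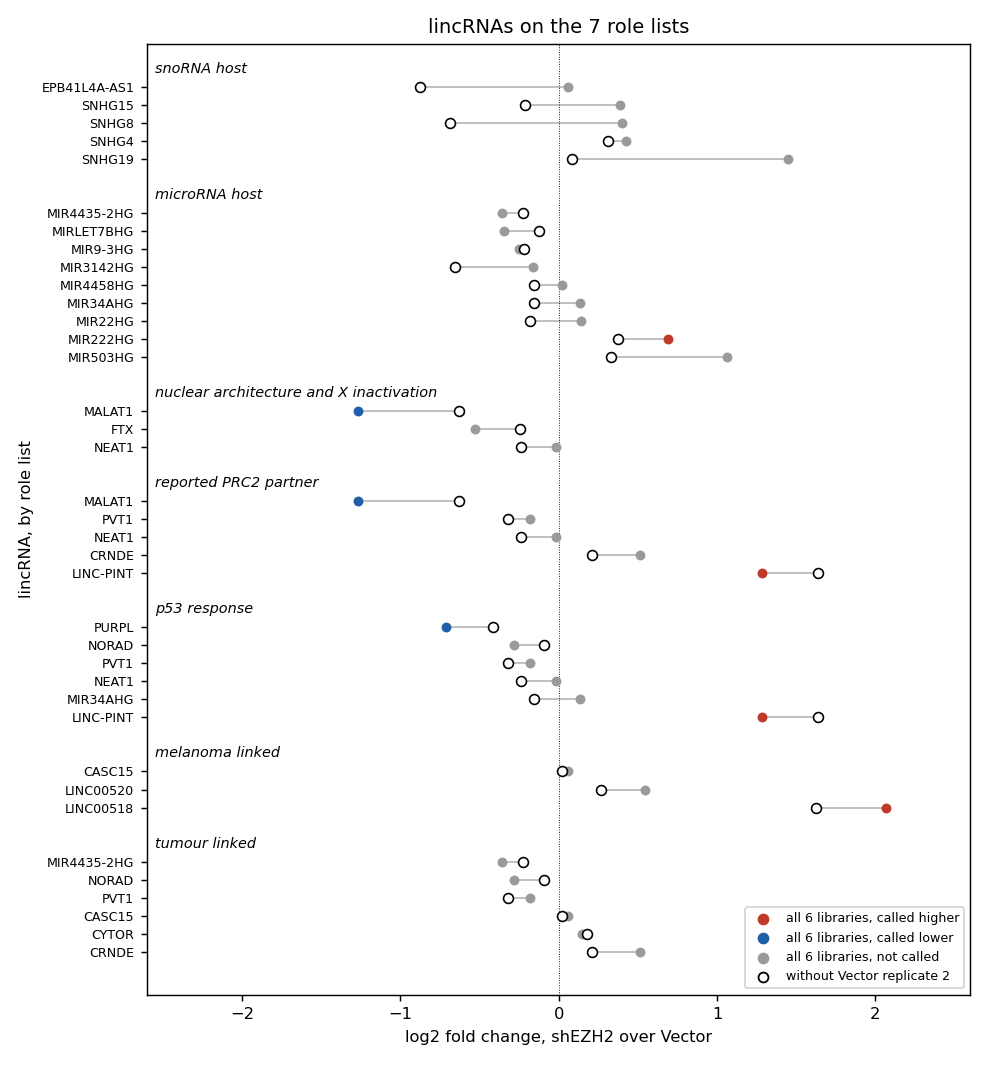
Log2 fold changes (x axis, shEZH2 over Vector) of the 26 lincRNAs on the 7 role lists, some on several lists, with filled points for all 6 libraries (red called higher, blue called lower, grey not called) and open points without Vector replicate 2. Called are LINC-PINT, LINC00518 and MIR222HG on the right and MALAT1 and PURPL on the left. The open points of EPB41L4A-AS1, SNHG8, SNHG15, MIR34AHG, MIR22HG and MIR4458HG lie on the other side of 0 from the filled ones.

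Hosts of small nucleolar RNAs, which carry the guides of ribosomal RNA modification in their introns, numbered 5 among the 208. With all 6 libraries 0 of the 5 were called by limma, DESeq2 or edgeR, and 1, SNHG4, had an unadjusted limma p under 0.05. At 7.55% higher and 7.07% lower over all genes tested in limma, 0 of 5 says little about these hosts. SNHG8 was at 4028, 409 and 3867 normalized counts in Vector and at 3124, 2146 and 2190 in shEZH2 libraries. EPB41L4A-AS1 was at 1117, 155 and 1073 against 745, 502 and 565. In both, Vector replicate 2 was the lowest library by far. Without it both were called lower, with log2 fold changes of -0.69 and -0.88 in place of 0.40 and 0.06.

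SNHG15 had 1072, 303 and 1028 normalized counts in Vector and 995, 841 and 892 in shEZH2 libraries, and its log2 fold change went from 0.39 to -0.21. SNHG19, whose exons add up to 342 bases, had 235, 11.6 and 194 against 408, 139 and 205. Its log2 fold change of 1.45 was not called and was 0.08 without Vector replicate 2. SNHG4, with 599, 508 and 696 against 733, 888 and 789, kept its sign, with 0.43 and 0.31.

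Mature microRNAs lie within 16 of the 208 lincRNAs on the same strand, with 40 mature sequences in the RefSeq table (GRCh38.p14). Of these 16 hosts, 3 were called higher and 0 lower by limma, where 7.55% of all genes tested were called higher and 7.07% lower. LINC-PINT and AC016831.6, named below, are among the 3 and overlap on the same strand, so their counts may share reads. The microRNAs themselves were not measured, and a change in a host transcript does not show a change in its microRNA. The mature sequences in the 3 hosts that rose are printed from their first base, with the seed (bases 2 to 8) in capitals. The first 2 share a seed, as do the last 2, while the other arms differ.
hsa-miR-29a-3p: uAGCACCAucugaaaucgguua
hsa-miR-29b-3p: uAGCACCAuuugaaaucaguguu
hsa-miR-29a-5p: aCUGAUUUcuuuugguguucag
hsa-miR-29b-1-5p: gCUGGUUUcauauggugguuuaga
hsa-miR-222-5p: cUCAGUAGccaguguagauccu
hsa-miR-221-3p: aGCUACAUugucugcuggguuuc
hsa-miR-222-3p: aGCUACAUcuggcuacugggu

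The miR-29 family, with the shared seed AGCACCA, is known to repress collagen genes and DNA methyltransferases. Its copies miR-29a (3p arm at chr7:130876748-130876769) and miR-29b-1 (3p arm at chr7:130877467-130877489) lie on the minus strand inside AC016831.6, and miR-29b-1 also lies inside the LINC-PINT entry above. AC016831.6 (ENSG00000285106) was at 115, 128 and 113 normalized counts in Vector and at 229, 244 and 238 in shEZH2 libraries. The host rose by 0.99 on the log2 scale (SE 0.14, adjusted p = 0.0165 in limma) and 1.05 without Vector replicate 2. The gene spans chr7:130791264-131110161 and overlaps both LINC-PINT entries on their own strand. How reads in the shared part were assigned is not given in the sources used here, so both rises may draw on the same reads, and they are uncertain as separate changes.

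MIR222HG hosts miR-221 and miR-222, which share the seed GCUACAU and are known to repress the receptor KIT and the cell cycle inhibitor CDKN1B. The host (ENSG00000270069), on the minus strand at chrX:45745211-45770274, was at 314, 166 and 328 normalized counts in Vector and at 412, 432 and 404 in shEZH2 libraries. Its rise was 0.69 on the log2 scale (adjusted p = 0.175 in limma). This call rested on Vector replicate 2, without which the log2 fold change was 0.37 (adjusted p = 0.0451 in limma) and below the fold threshold. It was also lost without shEZH2 replicate 1 (0.69), 2 (0.66) or 3 (0.71).

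MIR3142HG, which carries miR-146a, a feedback inhibitor of NF-kappaB signalling, was not called. It had 3218, 1178 and 3355 normalized counts in Vector and 2023, 2289 and 1960 in shEZH2 libraries. With all 6 libraries the groups overlapped and the log2 fold change was -0.16, and without Vector replicate 2 it was -0.66 and past the threshold. The value was 0.07 without Vector replicate 1 and 0.10 without Vector replicate 3, so its direction rested on single Vector libraries. MIR503HG had 208, 40.8 and 173 against 289, 214 and 221, with log2 fold changes of 1.06 and 0.33 that did not pass. The remaining hosts named for their microRNA, among them MIR22HG (0.14) and MIRLET7BHG (-0.34), were not called either.

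CYTOR and MIR4435-2HG each hold a copy of miR-4435, at chr2:87629764-87629785 and chr2:111321061-111321082, with the same mature sequence, shown with the seed in capitals.
hsa-miR-4435: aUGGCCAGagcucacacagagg

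CYTOR and MIR4435-2HG lie in a duplicated stretch of chromosome 2, and reads that fit both copies make their separate counts uncertain. CYTOR had 265, 284 and 268 normalized counts in Vector and 344, 288 and 278 in shEZH2 libraries. MIR4435-2HG had 1027, 1422 and 1131 against 852, 984 and 933. Neither was called, with log2 fold changes of 0.15 and -0.36.

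The other highly expressed lincRNAs were not called with all 6 libraries. AL390066.1 had 1222, 1822 and 1147 normalized counts in Vector and 930, 975 and 1072 in shEZH2 libraries, with a log2 fold change of -0.46. EBLN3P, an expressed copy of a bornavirus nucleoprotein gene, had 1181, 1233 and 1270 against 838, 1100 and 988, with a log2 fold change of -0.34. In both the groups did not overlap, and neither passed the fold threshold. LINC01293 (983, 1521 and 1077 against 829, 1158 and 1021) and AL365181.2 (880, 1134 and 917 against 1167, 968 and 1067) overlapped between groups, with log2 fold changes of -0.24 and 0.13.

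At the lower end of the levels, SH3TC2-DT had 39.7, 109 and 51.9 normalized counts in Vector and 39.0, 32.7 and 36.3 in shEZH2 libraries. Its log2 fold change of -0.75 did not pass and was -0.33 without Vector replicate 2. LINC00476 (57.5, 29.1 and 57.0 against 65.7, 51.9 and 48.7), LINC00973 (765, 282 and 778 against 656, 734 and 708) and LINC00662 (731, 431 and 698 against 686, 649 and 683) changed sign when Vector replicate 2 was left out. Their log2 fold changes went from 0.26 to -0.06, from 0.34 to -0.14 and from 0.16 to -0.09, and none of these values passed.

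Promoters in the RefSeq table (GRCh38.p14, 250 bases before to 50 after the start, matched by symbol, strand and a start within 1000 bases) were found for 66 of the 208 lincRNAs. They held a median of 22 CG dinucleotides, against 14 over all 35116 promoters of the table. For the 6 matched lincRNAs that were called higher the median was 11.5, and for the 4 called lower it was 20. The promoters of RALY-AS1 and LINC00665, which rose, and of MALAT1, which fell, are shown as examples of different CG counts, with each CG in capitals, on the strand of the gene. They lie at chr20:33994318-33994617 (minus strand, 35 CG), chr19:36331669-36331968 (minus strand, 12 CG) and chr11:65497488-65497787 (plus strand, 37 CG).
RALY-AS1: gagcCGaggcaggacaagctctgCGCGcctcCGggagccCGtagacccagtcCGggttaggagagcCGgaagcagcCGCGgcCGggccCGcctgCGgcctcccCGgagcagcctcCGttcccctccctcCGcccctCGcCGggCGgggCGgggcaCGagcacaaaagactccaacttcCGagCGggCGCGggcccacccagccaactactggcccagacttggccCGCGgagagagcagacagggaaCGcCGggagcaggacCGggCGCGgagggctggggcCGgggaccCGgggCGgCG
LINC00665: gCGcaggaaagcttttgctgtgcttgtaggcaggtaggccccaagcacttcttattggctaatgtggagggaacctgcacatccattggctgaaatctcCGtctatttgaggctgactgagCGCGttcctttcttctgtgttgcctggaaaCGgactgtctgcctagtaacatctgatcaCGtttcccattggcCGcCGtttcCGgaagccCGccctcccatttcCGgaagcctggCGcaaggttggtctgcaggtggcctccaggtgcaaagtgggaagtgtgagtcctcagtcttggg
MALAT1: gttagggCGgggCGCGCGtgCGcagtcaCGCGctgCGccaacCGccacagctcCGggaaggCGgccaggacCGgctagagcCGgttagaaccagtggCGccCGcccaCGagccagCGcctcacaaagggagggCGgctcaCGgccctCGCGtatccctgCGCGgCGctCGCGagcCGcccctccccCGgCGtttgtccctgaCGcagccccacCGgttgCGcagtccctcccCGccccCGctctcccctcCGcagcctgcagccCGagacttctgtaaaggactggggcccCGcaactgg

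Both strands of the promoters were searched for 3 motifs, none of which contains another. The E-box CACGTG was present in 5 of the 66 lincRNA promoters (7.58%) and in 7.26% of all promoters. The AP-1 motif TGACTCA was present in 4 (6.06%) and in 4.95%, and the TATA motif TATAAA in 5 (7.58%) and in 11.5%. The promoter of LINC-PINT held an E-box, and those of RALY-AS1, LINC00665 and MALAT1 held none of the 3. A match describes the letters in this window and not a site in use.

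LincRNA genes often start beside a coding gene on the other strand. Of the 208, 56 had such a divergent coding start within 1000 bases, and both genes of all 56 pairs were tested. The lincRNA was called in 5 pairs and the coding gene in 2, and in 0 pairs were both called the same way by limma. Over all genes tested, 7.55% were called higher and 7.07% lower. With so few calls, the count of 0 does not tell whether pairs change together. The 2 coding genes were TMED2, which fell by 0.82 on the log2 scale beside AC055713.1 at -0.44, and INSIG1, a regulator of sterol synthesis that rose by 0.91 beside AC144652.1 at 0.25. The signs were the same in 26 of the 56 pairs with all 6 libraries and in 35 without Vector replicate 2. Across the 56 pairs Pearson's r was 0.02 and Spearman's rho -0.00 with all 6 libraries, and 0.17 and 0.22 without that library. These are descriptions across pairs from the same libraries, and pairs are not replicates.

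The nearest coding gene, on either strand, was called in the same direction for 2 of the 18 lincRNAs called higher and for 2 of the 24 called lower. It was called in the opposite direction for 1 of each set, and for 4 of each set it was not tested. The shares over all genes tested were 7.55% higher and 7.07% lower. Of the 166 lincRNAs that were not called, 3 had a nearest coding gene called higher, 14 one called lower and 18 one that was not tested. The same-direction neighbours of lincRNAs described above were TFAP2A beside LINC00518, KLF14 beside LINC-PINT at a distance of 142633 bases, and DMRTA1 beside LINC01239. In all, 109 of the 208 overlapped another gene of the table, 45 of them a protein-coding gene, and 99 overlapped none. Among those 99, 5 were called higher and 13 lower, where 7.55% and 7.07% of all genes tested were.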

How the data were processed

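RNA of HMV-II cells was bound to poly-T beads and sequenced, in 3 libraries each for Vector and shEZH2. Per the labels, counting used featureCounts and the comparison DESeq2 1.20.0. The table as deposited holds signal values, which the authors made by dividing counted reads by 1 size factor per library. All values were whole multiples of the value of 1 read (tolerance 1e-06), so the reads could be recovered (15669863, 13400290 and 15923029 for Vector and 16129171, 19128939 and 16480078 for shEZH2). Columns of single libraries left out numbered 0. The aligner and the strandedness are not given in the sources used here. The labels name hg19, but the gene coordinates of the table are those of GRCh38, as are the RefSeq microRNA and promoter tables. The authors also deposited log2 fold changes and p-values of their own comparison, which were not used.

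The groups were compared with limma 3.58.1 (mean-variance trend) on log2(normalized count + 1). Tested were 15251 genes, those with a mean of 10 or more, and Benjamini-Hochberg adjustment covered all of them. This scale understates changes of low genes. All 208 lincRNAs passed this minimum by their own rule. The members, the role lists and the naming rule were chosen with earlier results of these data known. Named are the 12 largest rises and falls, the 10 highest means, the called or highest lincRNAs of each list, up to 5 whose sign differed without Vector replicate 2, the 3 nearest the limit on either side, and neighbouring coding genes. Some further genes in counts of 5 or fewer were named after their values were seen. The alternatives were edgeR 4.0.16 and DESeq2 1.42.0 on the recovered reads, other scaling, pseudocounts, minimums, thresholds and member rules, a replicate block, removal of a gene length trend, array weights, and each library left out. The fits were tested on simulated data with known changes. Those data gave every gene the same dispersion and held no library that departed as Vector replicate 2 does, so they do not test the fits for such a library. R 4.3.3, Python 3.11.15, pandas 2.3.3 and matplotlib 3.10.9 were used.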

Additional observations from a re-analysis of the deposited data

How the results depend on the processing

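Of the 26 named lincRNAs called at the study's threshold, all 26 kept their direction under the 18 alternative fits and 18 were called under each of them. EZH2 was called lower in all of these, with a log2 fold change of -1.13 to -0.96 when each library was left out in turn. With each library left out, 14 to 29 lincRNAs were higher and 18 to 32 lower at the threshold, 0 to 17 higher and 0 to 28 lower after adjustment, and the median log2 fold change ran from -0.078 to 0.111. The low ends after adjustment are those without shEZH2 replicate 3 and the high ends those without Vector replicate 2. The fit without that library uses fewer samples and a Vector spread from 2 close libraries.

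After adjustment, DESeq2 called 17 lower, and removal of the gene length trend 16 lower with a median log2 fold change of -0.065. Array weights gave 37 higher and 62 lower, with a median log2 fold change of -0.089. These weights ran from 0.0724 for Vector replicate 2 to 8.62 for shEZH2 replicate 3. The share over all genes was not counted in the alternative fits other than that without Vector replicate 2. Their counts therefore cannot be set against all genes. The replicate block left 4 lower after adjustment. Same-numbered libraries deviated together with correlations of 0.495, 0.36 and -0.274, so the numbers were not taken to pair the libraries, and 26 lincRNAs were higher and 25 lower at the threshold with the replicate block. A fold threshold of 2 left 7 higher and 9 lower, and calling on the adjusted p with the fold threshold 9 and 8, both stricter by construction. Other member rules changed the number of members. Chosen on the mean without Vector replicate 2, members numbered 203, of which 18 were higher and 22 lower at the threshold. At a mean of at least 100, 14 of 118 were lower at the threshold. At a mean of at least 20, 40 of 411 were higher and 41 lower, with 14 higher after adjustment. Among the 99 that overlap no other gene, 5 were higher and 13 lower at the threshold, and 4 and 4 after adjustment. Except where stated, the cause was not tested.

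Among the 51 named lincRNAs, signs changed only in those that were not called. Some that were not called went past the fold threshold in an alternative fit. Among them were CRNDE (0.680) and LINC00520 (0.702) without Vector replicate 1, and FTX (-0.729) without Vector replicate 3. AL390066.1 did so with the gene length trend removed (-0.673). Array weights ended the calls of AC009549.1 (0.521), MIR222HG (0.349), LINC01446 (-0.372), AL035071.1 (-0.481) and PURPL (-0.493), and removal of the gene length trend that of MIR222HG (0.503). With DESeq2, edgeR with TMM factors and edgeR with RLE factors, EPB41L4A-AS1 was at -0.377, -0.373 and -0.379 and SNHG8 at -0.158, -0.154 and -0.159. With the gene length trend removed, AL365181.2 was at -0.026, EPB41L4A-AS1 at -0.089 and NEAT1 at 0.319. With array weights, the values were -0.898 for EPB41L4A-AS1, -0.771 for SNHG8, -0.249 for MIR34AHG, -0.201 for SNHG15, -0.188 for LINC00476, -0.104 for LINC00973 and -0.053 for LINC00662. With each library left out in turn, log2 fold changes ran from -0.877 to 0.544 for EPB41L4A-AS1, from -0.688 to 0.961 for SNHG8, from -0.211 to 0.699 for SNHG15, from -0.156 to 0.334 for MIR34AHG, from -0.143 to 0.588 for LINC00973, from -0.088 to 0.293 for LINC00662, from -0.058 to 0.421 for LINC00476, from -0.655 to 0.099 for MIR3142HG and from -0.240 to 0.110 for NEAT1. The lowest of each was the value without Vector replicate 2. A single read was worth 0.799 to 1.16 normalized counts, so counting noise weighs most on the lincRNAs nearest the limit of 50.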

Other observations

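A lincRNA outside the naming rule, chosen after its values were seen, had the widest spread. FP236383.2, on the minus strand at chr21:8393419-8394341, was at 28.2, 279 and 3.05 normalized counts in Vector and at 5.71, 12.8 and 2.86 in shEZH2 libraries. It entered the 208 through Vector replicate 2 alone, and its log2 fold change of -2.18 was not called (adjusted p = 0.370 in limma). LINC01194, also chosen after its values were seen, and its nearest coding gene were called in opposite directions. LINC01194 fell by 0.70 on the log2 scale, while CTNND2, 670814 bases away, rose by 1.76 from 9.41, 6.99 and 7.13 normalized counts in Vector to 26.7, 27.1 and 32.5 in shEZH2 libraries.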
